A study of Mus musculus with 12 samples.

Results

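A fish oil diet was compared with a purified diet in mice that had received head injuries, using the 6 of 12 libraries that come from injured animals. The genes described are all those with enough counts to be tested, 19252 of the 53379 in the deposited table, and apart from that filter no measured value chose that set. The gene lists and the single genes named were chosen with results of these data known or values seen. All mice were wild type (WT) of the C57BL/6J strain, and both groups received rlmTBI, a repetitive closed head injury of less than mild grade. Brain tissue, which the series' design text calls injured cortex, was taken 6 months after the injury. The purified injured group ate a purified control diet without interruption and has 3 libraries, replicates 2, 3 and 4. The fish oil injured group ate in cycles a high fat diet to which fish oil (FO) had been added, and also has 3 libraries, replicates 2, 3 and 4. Fat content and the cyclic schedule differ between the diets together with the oil, so the parts that these play cannot be told apart. Sham mice of the same genotype, on the same diets and with 3 libraries per diet, are used only to set the diet difference of uninjured mice beside that of injured mice. The labels do not say whether each library is a separate animal, so the tests measure the spread between libraries.

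Fish oil supplies long-chain omega-3 fatty acids, which are taken up into membrane phospholipids, serve as precursors of lipid mediators and act as ligands of the PPAR nuclear receptors. The title of the series places the work in the metabolism and repair of brain vessels. Those vessels are lined by endothelial cells whose tight junctions and transporters form the blood-brain barrier, and they are supported by pericytes, smooth muscle and a basement membrane of collagens and laminins. Genes of the interferon response, which is active in many injured tissues, are switched on when a transcription factor complex that contains Stat2 and Irf9 binds a short promoter sequence, the interferon-stimulated response element.

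The 6 libraries held 46362158 to 59050525 counts each. Levels are CPM, the counts scaled to a common library size, on sizes scaled with TMM factors, and a difference is a log2 fold change of fish oil minus purified with its standard error (SE). The cortical projection neuron genes were present in all 6 libraries, among them Slc17a7, the vesicular glutamate transporter of cortical neurons, at 597 to 1083 CPM. Purified injured replicate 3 also carried olfactory bulb transcripts: Eomes, a transcription factor of bulb output neurons, stood at 91.1 CPM there and at 0 to 0.327 CPM in the other 5 libraries. The mean centred log2 CPM of the 9 tested olfactory bulb genes was 5.01 in that library and -1.08 to -0.10 in the other 5. Fish oil injured replicates 3 and 4 carried choroid plexus transcripts at levels given next. In bulk tissue, a lower value of a cell type's genes cannot be told apart between fewer cells of that type and less RNA per cell.

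The diets differed widely in genes of the choroid plexus, the epithelium that secretes cerebrospinal fluid. All 18 of its marker genes had higher fitted values on fish oil, at a median difference of 3.97 on the log2 scale against 0.0058 over all genes tested, and for 14 of the 18 the 3 fish oil libraries lay above the 3 purified ones. Over all genes 5.60% had groups that did not overlap with fish oil higher, and 5.98% with fish oil lower. No gene passed the edgeR test, for which the lowest adjusted p of any gene was 0.362. DESeq2, fitted to the same libraries, called 15 of the 18 higher at an adjusted p under 0.05, where it called 0.261% of all genes higher.

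Ttr, which encodes the thyroid hormone carrier transthyretin and is the most abundant of these genes here, stood at 14.1, 9.82 and 23.3 CPM in purified injured replicates 2, 3 and 4. On fish oil it stood at 186, 2417 and 2256 CPM in the replicates of the same numbers, a log2 fold change of 6.68 ± 1.49 (SE). Values of other genes are given in this order of replicates. Replicate 2 of the fish oil group thus lay far below the other libraries of its group and still above every purified injured library. Kl (chr5:150952607-150993817 on GRCm38), which encodes the anti-ageing hormone co-receptor klotho, stood at 3.72, 2.77 and 5.12 CPM on the purified diet and at 14.0, 84.8 and 100.8 CPM on fish oil, a log2 fold change of 4.10 ± 0.76. F5, which encodes coagulation factor V, stood at 0.847, 2.08 and 1.70 CPM against 6.51, 47.6 and 49.7 CPM, a log2 fold change of 4.49 ± 0.91. The order of the fish oil libraries was alike in these genes, with replicate 2 lowest and replicates 3 and 4 close to each other.

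The folate receptor gene Folr1 had a log2 fold change of 5.27 ± 1.09, the junction gene Cldn2 one of 5.28 ± 1.12, the bicarbonate transporter gene Slc4a5 one of 6.47 ± 1.46, and the potassium channel subunit gene Kcne2 one of 5.23 ± 1.09. Steap1, a metalloreductase gene, was at 5.04 ± 1.03 with no purified injured library above 0.163 CPM. The chloride channel family gene Clic6 was at 3.39 ± 0.79, and Otx2, a transcription factor that maintains the epithelium, at 3.08 ± 0.90. The 4 genes whose groups overlapped were Kcnj13, Col8a1, Wfikkn2 and Aqp1, the last a water channel gene with 32.5 CPM in purified injured replicate 3, the library with olfactory bulb transcripts. In sham mice the median of the same 18 genes was -1.07, with purified sham replicate 3 the highest of the 6 sham libraries. At a mean centred level of 1.23 that purified library lay above fish oil injured replicate 2, at 0.76, for example with 9.88 against 6.51 CPM of F5 and 17.0 against 14.0 CPM of Kl. With fish oil injured replicate 2 as the only fish oil injured library, the median of the 18 genes was 2.01 and 16 of them were above 0.

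**Figure D1:**
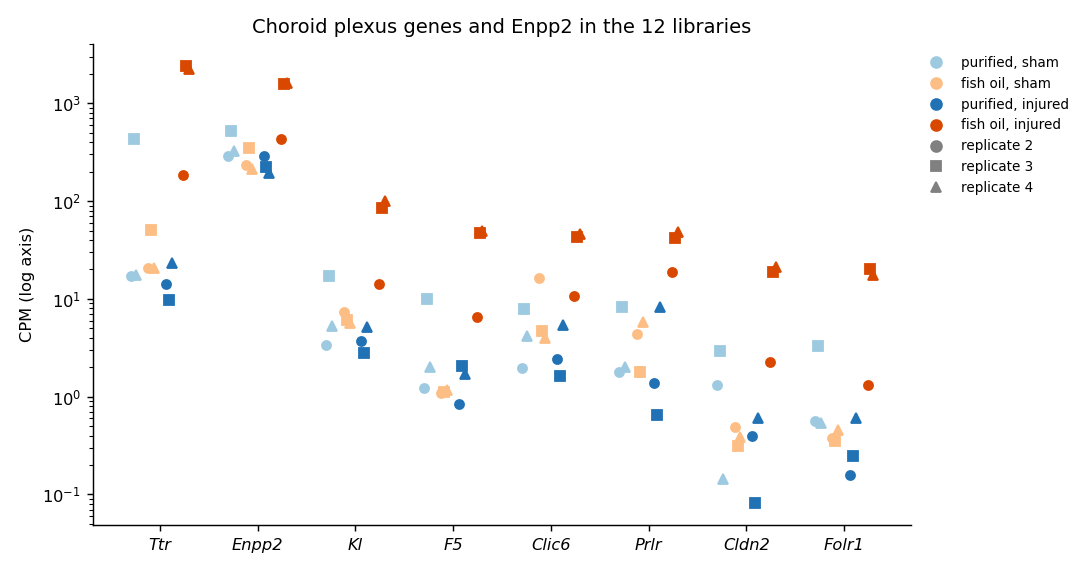
Level of 8 genes in each of the 12 libraries, as CPM on a log axis, coloured by group and with the replicate number as the symbol. In every gene shown the fish oil injured replicates 3 and 4 are the highest libraries, and fish oil injured replicate 2 lies between them and the purified injured libraries.

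Several of the genes with the smallest p-values outside that list followed the same order of libraries. Enpp2 (chr15:54838901-54952892 on GRCm38) encodes autotaxin, the enzyme that makes lysophosphatidic acid, and is made by choroid plexus as well as by oligodendrocytes. It stood at 287, 222 and 191 CPM on the purified diet and at 427, 1559 and 1632 CPM on fish oil, a log2 fold change of 2.37 ± 0.45. Drc7, a gene of the motile cilium, stood at 1.14, 0.591 and 1.92 CPM against 3.58, 8.63 and 10.9 CPM (2.66 ± 0.49). Wdr86 was at 3.34 ± 0.63 and Prr32 at 3.95 ± 0.81, both with means under 4 CPM in the fish oil group. Cab39l, a scaffold of the LKB1 kinase complex, differed less, at 39.4, 34.9 and 44.5 CPM against 51.1, 64.9 and 75.4 CPM (0.69 ± 0.14). For each of these 5 genes the groups did not overlap, which their choice by p in these same libraries favours. The mean centred choroid plexus level of the fish oil libraries ran in step, at 0.76, 3.47 and 3.39 against -1.90, -1.21 and -0.69 on the purified diet. Adjusted for that level as a covariate, the log2 fold changes were 0.41 for Enpp2, 0.86 for Drc7, 0.54 for Wdr86, 2.56 for Prr32 and 0.27 for Cab39l. The level itself does not overlap between the diet groups of injured mice, so this fit cannot tell diet from level. With fish oil injured replicate 2 as the only fish oil injured library the log2 fold changes were 0.86, 1.54, 1.71, 2.29 and 0.35 in the same order.

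Ependymal cells, which line the ventricles and carry motile cilia, were represented by 14 tested genes, 11 of them above 0 with a median of 0.67. Groups did not overlap for 3 of the 14, all higher, against 5.60% of all genes. These were Drc7, the dynein gene Dnah6 at 1.85 ± 0.54, and Foxj1, the master transcription factor of motile cilia, at 0.72 ± 0.39. Foxj1 stood at 1.60, 1.61 and 0.960 CPM on the purified diet and at 1.94, 2.33 and 2.60 CPM on fish oil. Without fish oil injured replicate 4 the median of this list was 0.26.

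Genes of brain endothelial cells had lower values on fish oil. All 18 were below 0 (median -0.47 on the log2 scale), and for 10 of the 18 the fish oil libraries lay below every purified library, against the 5.98% of all genes given above. At an unadjusted p under 0.05, 8 of the 18 were lower, where 6.83% of all genes were lower and 3.89% higher at that level. None passed after adjustment over all genes by edgeR, and DESeq2 called 2 of them lower, Slco1a4 and Adgrf5, where it called 0.729% of all genes lower.

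Slco1a4 (chr6:141805440-141856199 on GRCm38), which carries organic anions across the blood-brain barrier, stood at 44.4, 56.9 and 35.8 CPM on the purified diet and at 26.5, 25.3 and 31.6 CPM on fish oil, a log2 fold change of -0.72 ± 0.17. Adgrf5, an adhesion receptor of endothelium, stood at 36.3, 38.2 and 31.0 CPM against 25.5, 19.6 and 25.4 CPM (-0.58 ± 0.13). Flt1, a receptor for VEGF, stood at 43.0, 42.8 and 36.9 CPM against 31.9, 25.5 and 29.1 CPM (-0.50 ± 0.16). In all 3 genes the groups were apart, and purified injured replicate 4 was the lowest purified library. Without that library, the purified one nearest to the fish oil group, the edgeR test called Slco1a4 (-0.87, adjusted p = 0.049). With 1 library left out the log2 fold change of Slco1a4 ran from -0.87 to -0.54.

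The endothelial phosphatase gene Ptprb was at -0.41 ± 0.12, the adhesion gene Pecam1 at -0.57 ± 0.18, the angiopoietin receptor gene Tek at -0.52 ± 0.18, the VEGF receptor gene Kdr at -0.39 ± 0.15 and Emcn, which encodes the surface sialomucin endomucin, at -0.71 ± 0.28, each with groups apart. Cdh5, the cadherin of endothelial junctions, was at -0.29 ± 0.20. Cldn5, the main claudin of the barrier, overlapped between the groups at 3.58, 4.57 and 2.60 CPM against 2.87, 2.77 and 4.43 CPM (-0.09 ± 0.29). In sham mice all 18 endothelial genes were also below 0, with a median of -0.77. The difference between the injured and sham contrasts passed for none of the 18 (lowest adjusted p = 0.82 by edgeR), and that difference had a median of 0.26. With fish oil injured replicate 2 as the only fish oil injured library, all 18 stayed below 0 with a median of -0.35. With the choroid plexus level as a covariate 16 of 18 were below 0 (median -0.30), and with the splicing factor level, described further on, 14 of 18 (median -0.28). The choroid plexus level does not overlap between these diet groups, so the fit with it cannot tell diet from level. Nor can the fit with the splicing factor level, whose list was chosen after values were seen and was lower on fish oil in every member. Leaving out 1 library at a time gave 16 to 18 of 18 below 0.

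**Figure D2:**
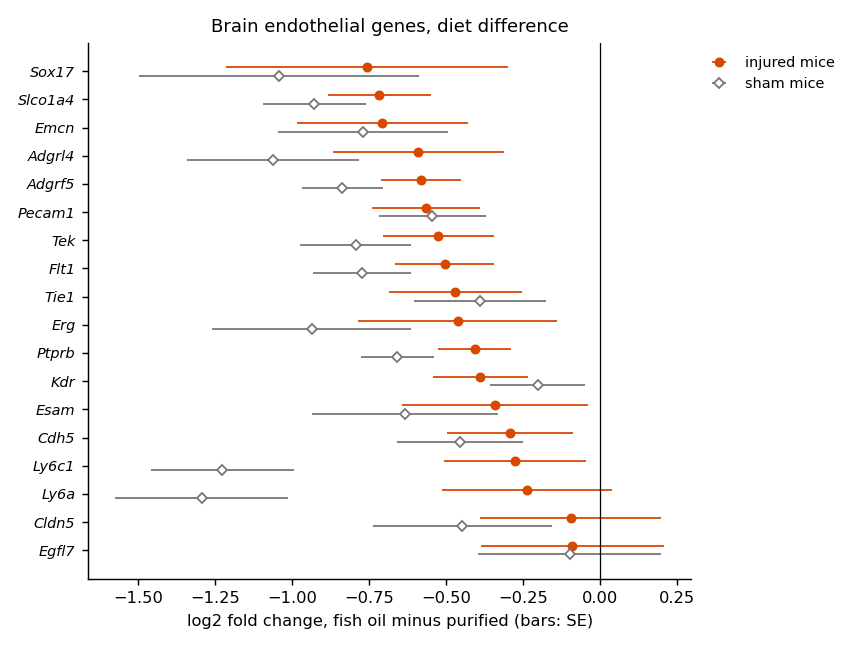
Log2 fold change of fish oil minus purified for the 18 brain endothelial genes in injured mice (filled circles) and sham mice (open diamonds), 3 libraries per group, with bars of 1 SE. All points lie left of 0 for injured mice, from Egfl7 near -0.09 to Sox17 at -0.76.

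Barrier junction and transporter genes as a group did not share that pattern. Their 18 members had a median of 0.03, 11 of them above 0, and 2 (11.1%) were lower without overlap, against 5.98% of all genes. These were Slc2a1, the glucose transporter of the barrier, at 49.3, 48.7 and 41.7 CPM against 37.7, 37.1 and 37.2 CPM (-0.32 ± 0.10), and Abcb1a, the drug efflux pump, at -0.52 ± 0.18. Mfsd2a, which carries the omega-3 fatty acid DHA across the endothelium as a lysophospholipid, overlapped, with 10.6, 17.4 and 11.8 CPM against 10.4, 12.7 and 10.6 CPM (-0.24 ± 0.21).

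Pericyte and smooth muscle genes were below 0 in 14 of 15 tested members, with a median of -0.37. For 4 of the 15 the fish oil libraries lay below all purified ones, against 5.98% of all genes. Notch3, the receptor that maintains vascular smooth muscle, stood at 8.02, 6.56 and 6.72 CPM against 3.60, 5.46 and 4.27 CPM (-0.68 ± 0.26). The smooth muscle myosin gene Myh11 was at -0.56 ± 0.28 and the pericyte gene Atp13a5 at -0.36 ± 0.15, while Pdgfrb, the receptor that recruits pericytes, overlapped (-0.25 ± 0.17). The sham median of this list was -0.06. In injured mice it moved to -0.62 without fish oil injured replicate 3, to -0.24 without fish oil injured replicate 2 and to -0.77 with replicate 2 as the only one.

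Extracellular matrix and basement membrane genes had a median of -0.25, with 22 of 28 below 0. Without overlap 3 (10.7%) were lower, against 5.98% of all genes, and 1, the collagen gene Col18a1, was higher, against 5.60%. The 3 were also collagens. Col6a1 (chr10:76708792-76726168 on GRCm38), a chain of collagen VI, stood at 116, 93.8 and 39.5 CPM on the purified diet and at 30.2, 30.3 and 27.3 CPM on fish oil (-1.51 ± 0.34). Its fish oil libraries were close together and its purified ones were spread, so the size of the difference depends on purified replicates 2 and 3. DESeq2 called Col6a1, and so did edgeR without purified injured replicate 4 (-1.86, adjusted p = 0.02), the purified library nearest to the fish oil group. These were the only 2 of 27 alternatives in which Col6a1 passed. With 1 library left out its log2 fold change ran from -1.86 to -1.19. Col4a1 and Col4a2, the chains of the main basement membrane collagen, were at -0.64 ± 0.18 and -0.73 ± 0.25, and Col4a2 at -0.33 without purified injured replicate 2. The matrix median moved to -0.57 without fish oil injured replicate 3 and to -0.02 without fish oil injured replicate 4, and meningeal fibroblast genes, which share members with it, stood at -0.28, 0.87 and -0.68 in the fish oil libraries and at -0.50, -0.17 and 0.89 in the purified ones. Their part in the matrix values was not tested. Among 22 angiogenesis and vascular signalling genes the median was -0.28, and 3 (13.6%) were lower without overlap, against 5.98% of all genes. These were Kdr and the orphan receptor gene Tie1, which are also on the endothelial list, and the Notch ligand gene Dll4 at -0.99 ± 0.32.

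Interferon response genes also had lower values on fish oil. Of 23 tested, 19 were below 0 with a median of -0.45. For 11 of the 23 the fish oil libraries lay below every purified library, against 5.98% of all genes. Oasl2, Isg15, Stat2 and Irf9 were among the 11, so the set held the signalling components as well as their targets. None passed by edgeR, and DESeq2 called 1, Oasl2, where it called 0.729% of all genes lower. In sham mice the median was 0.10 with 14 of 23 above 0, and the difference between the contrasts, whose median was -0.51, passed for none of the 23 (lowest adjusted p = 0.82 by edgeR).

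Oasl2 (chr5:114896936-114912234 on GRCm38), an antiviral gene of the oligoadenylate synthetase family, stood at 6.03, 6.42 and 5.42 CPM on the purified diet and at 3.09, 2.49 and 1.48 CPM on fish oil (-1.34 ± 0.28). Isg15, a ubiquitin-like modifier, stood at 1.14, 2.14 and 2.04 CPM against 0.636, 0.842 and 0.962 CPM (-1.12 ± 0.36). Stat2, the interferon-specific subunit of the transcription factor complex, stood at 32.5, 25.8 and 23.1 CPM against 17.9, 20.4 and 21.2 CPM (-0.45 ± 0.14). The gaps between the groups were narrow for Isg15 and Stat2 and wider for Oasl2.

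Irf9, the DNA-binding subunit of the complex, had a mean of 13.7 ± 1.48 CPM (SD, n = 3) against 9.17 ± 1.98 CPM (-0.58 ± 0.20 SE). Irf7, which amplifies interferon production, was at -0.84 ± 0.33 (-0.48 without purified injured replicate 2), the antiviral GTPase gene Mx1 at -1.16 ± 0.51, Usp18, the protease that removes Isg15 from proteins, at -0.79 ± 0.30 and the RNA-binding effector gene Ifit1 at -0.68 ± 0.35. Oas1a was the lowest at -2.14 ± 0.84, on few reads, with 0.512, 1.10 and 0.800 CPM against 0.164, 0 and 0.385 CPM, and it has near-identical neighbours with which it may share reads. The viral RNA sensor gene Ifih1 was among the 4 above 0 (0.25 ± 0.25). Outside the list, Helz2, an interferon-inducible helicase gene, was at 6.07, 5.16 and 4.36 CPM against 2.65, 2.42 and 2.89 CPM (-0.97 ± 0.21), and Nlrc5, the activator of MHC class I genes, at -0.88 ± 0.37. Unlike the median of the interferon list, Helz2 was below 0 in sham mice too, at -0.62 ± 0.20. The list of 12 MHC class I presentation genes, which includes Nlrc5, had a median of -0.03. Of the 12, 2 were lower without overlap, Nlrc5 and H2-Q4, against 5.98% of all genes. The interferon median stayed between -0.49 and -0.30 in all 27 alternatives run on it, among them fits without each library in turn and with the choroid plexus or olfactory bulb level as a covariate. Because the choroid plexus level separates the diet groups of injured mice, the fit with it cannot tell diet from level.

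**Figure D3:**
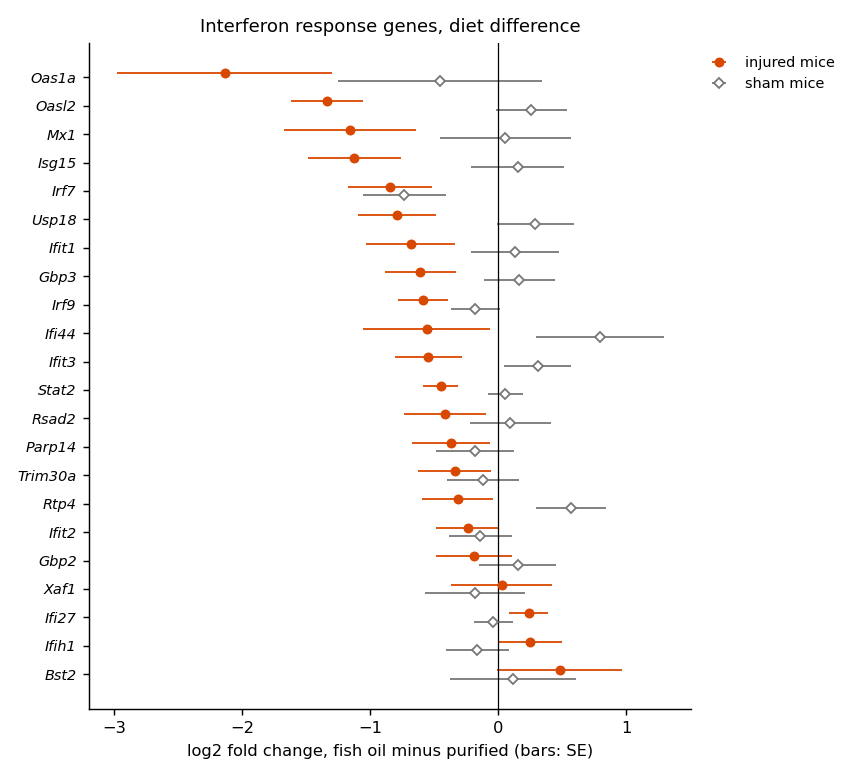
Log2 fold change of fish oil minus purified for 22 interferon response genes in injured mice (filled circles) and sham mice (open diamonds), with bars of 1 SE. In injured mice 18 of the points lie left of 0, while the sham points scatter on both sides of it.

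The promoters of 4 of these genes are shown because each has groups that did not overlap and holds the interferon-stimulated response element in the 250 bases before its start. The letters searched were TTTCNNTTTC and, on the other strand, GAAANNGAAA. They were found in 936 of 27025 promoters of that length in the RefSeq table for GRCm38.p6 (3.46%) and in 10 of the 17 interferon response genes that the table holds (58.8%). Each line gives 60 bases in the direction of the gene, with the match in capitals.
Isg15: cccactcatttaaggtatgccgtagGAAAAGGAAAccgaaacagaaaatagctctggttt
Oas1a: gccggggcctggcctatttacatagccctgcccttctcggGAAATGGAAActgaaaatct
Stat2: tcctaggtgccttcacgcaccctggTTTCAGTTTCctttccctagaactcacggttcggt
Ifit1: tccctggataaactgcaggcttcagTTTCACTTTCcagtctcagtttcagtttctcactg
The windows lie at chr4:156200862-156200921 on the minus strand, chr5:120907526-120907585 on the minus strand, chr10:128270251-128270310 on the plus strand and chr19:34640760-34640819 on the plus strand, in that order. Of the 10 genes with a match, 4 had groups apart and 6 overlapped, Ifit3, Gbp2, Gbp3, Rsad2, Trim30a and Bst2. A match describes the letters in the window and says nothing of binding in these samples.

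Genes of protein folding had higher values on fish oil by small amounts. The list for the unfolded protein response and integrated stress response, 20 genes, had a median of 0.25 with 18 above 0. For 5 of the 20 the fish oil libraries lay above every purified library, against 5.60% of all genes. Calr, a calcium-binding chaperone of the endoplasmic reticulum, stood at 244, 268 and 309 CPM against 319, 361 and 344 CPM (0.32 ± 0.11), and Hsp90b1 at 308, 359 and 421 CPM against 464, 432 and 464 CPM (0.32 ± 0.12). Manf, a secreted factor of that compartment, was at 0.29 ± 0.10 and the asparagine synthetase gene Asns at 0.41 ± 0.16 (0.22 without purified injured replicate 3). Hspa5, the master chaperone of the compartment, was at 0.38 ± 0.15 with overlapping groups, since purified injured replicate 4 reached 297 CPM and fish oil injured replicate 4 stood at 295 CPM. In sham mice the list's median was 0.02.

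A second element, the endoplasmic reticulum stress element, stands in the promoters of some of these genes, and 2 with groups apart are shown. Its letters were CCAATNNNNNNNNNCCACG and, on the other strand, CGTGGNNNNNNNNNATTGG. In the 250 bases before the start it was found in 35 of 27025 promoters (0.130%) and in 6 of the 19 listed genes with a promoter (31.6%), Hspa5, Hsp90b1, Pdia6, Calr, Canx and Creld2. The windows are chr8:84847054-84847113 and chr10:86705617-86705676 on GRCm38.p6, both on the minus strand, from RefSeq.
Calr: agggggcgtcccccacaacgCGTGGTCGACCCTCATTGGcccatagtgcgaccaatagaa
Hsp90b1: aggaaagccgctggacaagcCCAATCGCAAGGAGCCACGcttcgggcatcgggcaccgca
Their fish oil libraries lay above all purified ones, whereas the log2 fold change of Creld2, which holds the same element, was 0.02 ± 0.18.

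Heat shock genes of the cytosol had a median of 0.23 with 16 of 18 above 0. Of the 18, 7 were higher without overlap, against 5.60% of all genes. Hsph1, a co-chaperone, stood at 297, 236 and 341 CPM against 412, 356 and 359 CPM (0.37 ± 0.13). Hspa8, the constitutive member of the HSP70 family, was at 0.26 ± 0.10, Hsp90aa1 at 0.30 ± 0.11, Hspa4l at 0.36 ± 0.13 and the HSP40 gene Dnaja1 at 0.28 ± 0.10. In each of these 5 genes purified injured replicate 4 was the highest purified library and stood closest to the fish oil group, and the sham median of the list was 0.00.

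All 26 nuclear genes of oxidative phosphorylation were above 0, with a median of 0.18, and 10 were higher without overlap, against 5.60% of all genes. Cox7a2, a subunit of complex IV, stood at 70.2, 85.2 and 86.9 CPM against 97.1, 92.0 and 113 CPM (0.32 ± 0.12). Uqcrc2, of complex III, was at 0.26 ± 0.10 and Ndufv2, of complex I, at 0.27 ± 0.10. The 13 transcripts of the mitochondrial genome were all above 0 with a median of 0.27 and 2 of them apart, among them mt-Nd2 at 0.40 ± 0.17. All 24 ribosomal protein genes were above 0 with a median of 0.22, and 10 were higher without overlap, for example Rpl13 at 29.0, 27.4 and 29.2 CPM against 32.7, 38.0 and 37.4 CPM (0.34 ± 0.13) and Rps6 at 0.26 ± 0.11. With fish oil injured replicate 2 as the only fish oil injured library these counts were smaller, 17 of 26 oxidative phosphorylation genes (median 0.10) and 18 of 24 ribosomal genes (median 0.09) above 0.

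The composition of the RNA moved with these groups. A list of 29 splicing factor and SR protein genes, chosen after values had been seen, was below 0 in every member, with a median of -0.44. Of the 29, 6 were lower without overlap, against 5.98% of all genes. Snrnp70, of the U1 splicing particle, stood at 237, 266 and 147 CPM against 137, 114 and 127 CPM (-0.79 ± 0.18). The poly(A)-binding protein gene Pabpn1 was at -0.92 ± 0.20, the splicing regulator genes Rbm5 at -0.48 ± 0.12 and Srsf5 at -0.54 ± 0.16. The mean centred level of the list was 0.05, 0.46 and -0.06 in the purified libraries and -0.0033, -0.47 and -0.33 in the fish oil ones. DESeq2 called 3 of the 29 lower, where it called 0.729% of all genes lower. The members of the list were below 0 in sham mice as well, with a median of -0.22. Long noncoding RNAs took 1.31%, 1.19% and 1.09% of counts on the purified diet and 1.15%, 0.825% and 0.901% on fish oil, as the annotation's lincRNA class. Among single noncoding RNAs, Snhg11 was at -0.73 ± 0.25 and Mirg at -0.81 ± 0.24. Gene length moved too: the median log2 fold change was 0.11 over the fifth of genes with the shortest exonic length, 0.04 over the next and -0.0015 over the longest. In sham mice the same medians were 0.079, 0.038 and -0.049. The part of RNA composition in the values of the ribosomal, mitochondrial and chaperone genes was not tested. With the splicing factor level as a covariate the ribosomal median was 0.10, the oxidative phosphorylation median 0.17 and the heat shock median 0.23. As that list was chosen after values were seen, with every member lower on fish oil, this fit cannot tell diet from RNA composition.

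**Figure D4:**
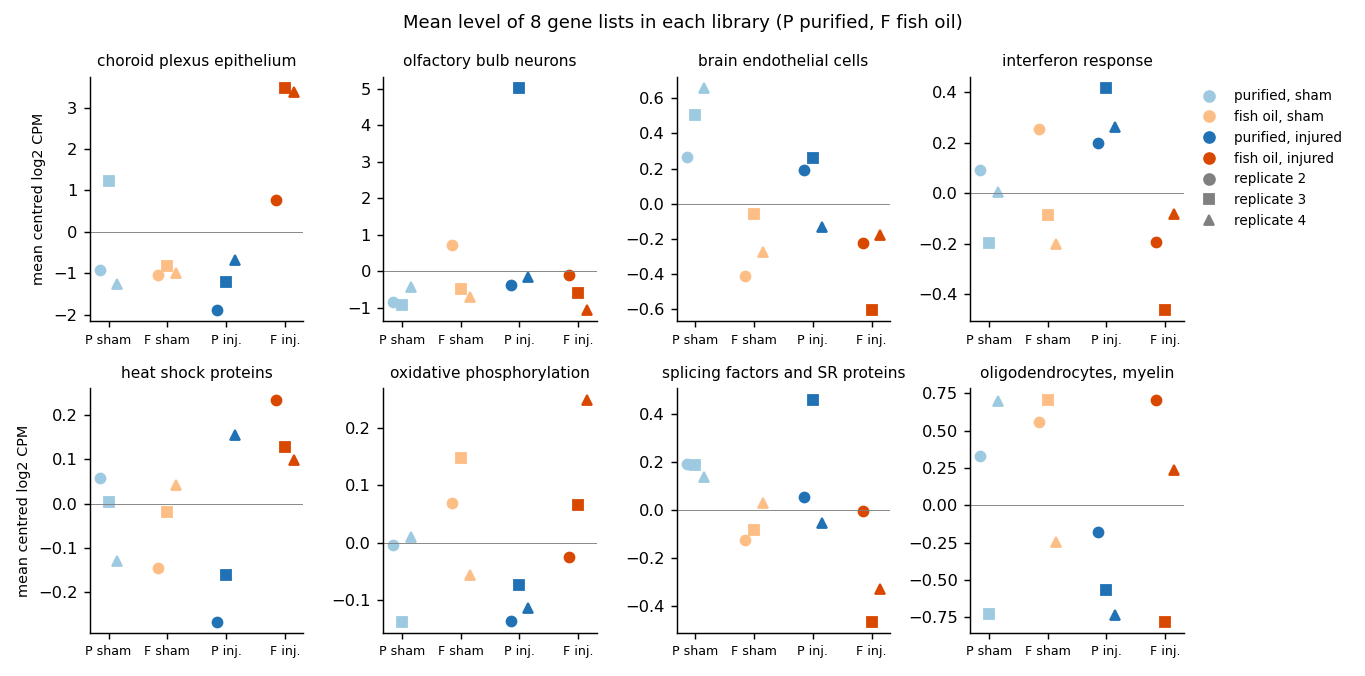
Mean centred log2 CPM of 8 gene lists in each library, by group (P purified, F fish oil, inj. injured) with the replicate number as the symbol, each panel on its own scale. Purified injured replicate 3 stands alone in olfactory bulb genes, and among the injured libraries the fish oil ones are lowest in interferon genes and highest in choroid plexus genes.

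Genes that respond to dietary lipid differed little. Of 26 genes of fatty acid oxidation and PPAR targets, 17 were above 0 with a median of 0.12. Without overlap 2 (7.69%) were higher, against 5.60% of all genes. Plin4 (chr17:56100591-56109803 on GRCm38), which coats lipid droplets, stood at 2.86, 1.28 and 2.90 CPM against 4.09, 4.30 and 5.70 CPM (1.00 ± 0.35). In sham mice the sign was the opposite, with a log2 fold change of -1.56 ± 0.35, and the difference between the contrasts was 2.56, with an adjusted p of 0.82 by edgeR, while DESeq2 counted Plin4 among 21 genes that passed for that difference. Acot1, an acyl-CoA thioesterase and PPAR alpha target, stood at 3.35, 2.89 and 3.42 CPM against 4.51, 4.98 and 4.62 CPM (0.55 ± 0.20). The oxidation enzyme gene Acaa2 was at 0.43 ± 0.17 and Pdk4, a kinase that turns off glucose oxidation, at 0.24 ± 0.17, both with overlap. The median of this list was -0.08 with fish oil injured replicate 2 as the only fish oil injured library.

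The 20 genes of omega-3 uptake and phospholipid remodelling had a median of 0.00, with Enpp2 the one higher without overlap and Lpcat1, a lysophospholipid acyltransferase gene, the one lower, at -0.07 ± 0.09. Acsl3, which activates fatty acids, was at 0.32 ± 0.11 with overlap. Cholesterol synthesis genes had a median of 0.08, fatty acid synthesis and desaturase genes one of 0.07 and eicosanoid genes one of -0.05, each with 1 or 2 members higher without overlap and, for cholesterol synthesis, 1 lower. These 4 lists of 20 or 21 genes thus each had 0 to 2 members apart in a direction, beside the 5.60% and 5.98% found over all genes.

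**Figure D5:**
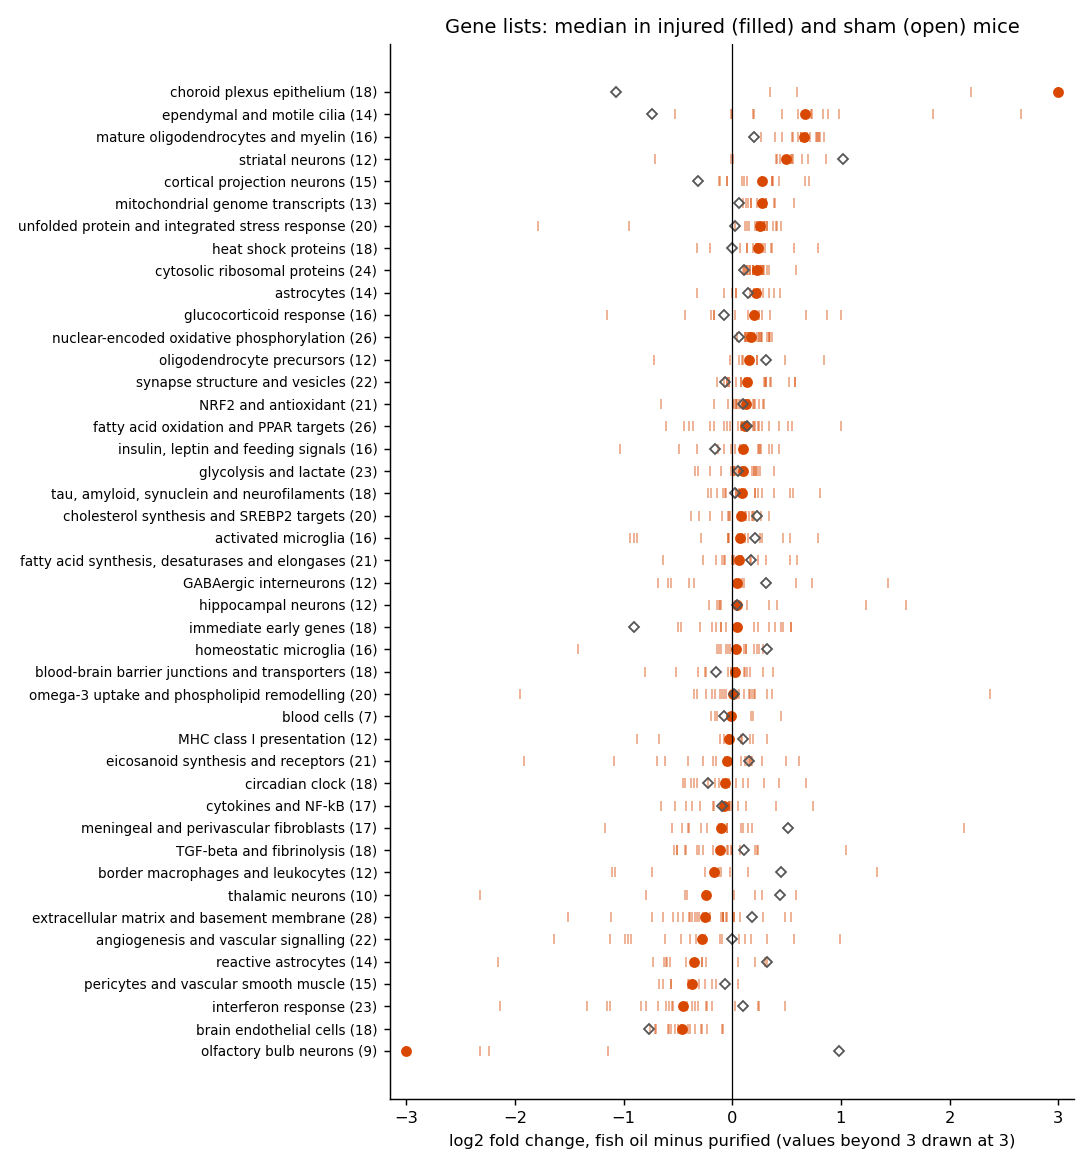
Median log2 fold change of fish oil minus purified for gene lists of cell types and pathways in injured mice (filled circles) and sham mice (open diamonds), with the members of injured mice as ticks and the number of tested genes in brackets. Values beyond 3 are drawn at 3. Choroid plexus and olfactory bulb lists stand far from 0 in opposite directions, and endothelial genes lie below 0 in both injured and sham mice. The hypothalamic and hindbrain neuron list (median -0.97 in injured and 1.69 in sham mice) is not drawn, nor are the lists chosen after values were seen.

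Oligodendrocyte and myelin genes were all above 0, 16 of 16 with a median of 0.66, but none had groups apart, and the median was 0.29 without fish oil injured replicate 2. Mbp, the myelin basic protein gene, stood at 1184, 775 and 732 CPM against 1950, 785 and 1608 CPM (0.69 ± 0.44), and Mal, a lipid raft protein gene of myelin, was at 0.85 ± 0.47. Without fish oil injured replicate 2 these were 0.42 for Mbp and 0.31 for Mal. Fish oil injured replicate 3 lay among the purified libraries in both genes and the other 2 lay above them. Astrocyte genes had a median of 0.22, with 3 of 14 higher without overlap, against 5.60% of all genes. Slc1a2, the main glutamate transporter of astrocytes, stood at 3827, 2865 and 4552 CPM against 4643, 4907 and 5148 CPM (0.39 ± 0.17), and Slc39a12, a zinc transporter gene, was at 0.44 ± 0.18. Reactive astrocyte genes had a median of -0.35 with 0 of 14 apart in either direction, and homeostatic microglia genes one of 0.04, also with 0 of 16 apart.

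Several values rested on purified injured replicate 3, the library with olfactory bulb transcripts, whose part in them was not tested. The 9 bulb genes had a median of -4.18, which was -0.08 without that library. Sall1, a transcription factor gene of microglia, stood at 24.7, 136 and 29.6 CPM against 23.4, 26.5 and 21.2 CPM (-1.42 ± 0.52), and at -0.20 without replicate 3. The fatty acid binding protein gene Fabp7 (-1.95 ± 0.78), the basement membrane gene Nid1 (-1.11 ± 0.47) and the filament gene Vim of reactive astrocytes (-0.73 ± 0.30) were likewise highest in that library, and were at -0.25, -0.42 and -0.34 without it.

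Activity-dependent genes as a group lay on both sides of 0: the 18 immediate early genes had 10 above and 8 below, with a median of 0.04 in injured and -0.90 in sham mice. Bdnf, the activity-induced neurotrophin gene, stood at 30.2, 28.6 and 38.1 CPM against 63.3, 41.2 and 36.6 CPM (0.54 ± 0.20), with overlap through fish oil injured replicate 4, and at 0.27 without fish oil injured replicate 2. Of 22 synapse genes 16 were above 0 with a median of 0.14. The glutamate receptor subunit gene Grin2a was higher without overlap (0.57 ± 0.24), and the scaffold gene Homer1 (0.58 ± 0.23), highest in fish oil injured replicate 2, was at 0.22 without that library. Mt1, a metallothionein gene induced by glucocorticoids and zinc, was at 0.87 ± 0.34, and Tph2, the serotonin-making enzyme of neurons, at 0.906, 0.469 and 0.820 CPM against 1.91, 1.07 and 1.75 CPM (1.10 ± 0.41). Tph2 is on the list of hypothalamic and hindbrain neurons. Of the 5 tested genes of that list 2 were above 0 and 3 below, with a median of -0.97.

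Among the 10 genes with the smallest p-values and lower values on fish oil, all had groups apart, against 5.98% of all genes. Choosing genes by p in these same libraries favours groups that are apart. Tgfbr3l, which resembles the TGF-beta co-receptor, stood at 2.32, 3.32 and 1.90 CPM against 1.00, 0.684 and 0.693 CPM (-1.66 ± 0.29). Firre (chrX:50555744-50635321 on GRCm38), a long noncoding RNA of the nucleus, stood at 108, 135 and 76.1 CPM against 63.9, 43.6 and 44.5 CPM (-1.07 ± 0.20). In both genes purified injured replicate 4 was the purified library nearest to the fish oil group.

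The metalloproteinase gene Adamts10, which acts on microfibrils, was at -1.03 ± 0.20, the actin crosslinker gene Flna at -0.51 ± 0.10 and the phospholipid flippase gene Atp11b at -0.67 ± 0.14. The zinc finger gene Zkscan2 was at -0.72 ± 0.15, and the scavenger receptor gene Ssc5d, highest in purified injured replicate 3 at 7.87 CPM, was at -2.04 ± 0.44 and at -1.30 without that library. Without purified injured replicate 4 edgeR called 83 genes, 76 lower and 7 higher. Tgfbr3l (-1.84), Firre (-1.27), Adamts10 (-1.21), Atp11b (-0.82), Zkscan2 (-0.88), Ssc5d (-2.40), Snrnp70 (-1.01), Pabpn1 (-1.12) and Drc7 (3.13) were among them. The library left out was the purified one nearest to the fish oil group in Tgfbr3l, Firre, Adamts10, Atp11b, Zkscan2, Ssc5d, Snrnp70 and Drc7. Without fish oil injured replicate 2 edgeR called 14, of which Kl (4.58), Enpp2 (2.77), Wdr86 (3.76), Cab39l (0.83), Folr1 (5.81) and Mirg (-1.22) are named here. Without purified injured replicate 3 it called 1, the dynactin subunit gene Dctn4 (0.93, adjusted p = 0.0082), which over all libraries stood at 67.6, 113 and 76.0 CPM against 141, 139 and 133 CPM (0.68 ± 0.15).

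Counted over all genes, 0 of 19252 passed the edgeR test in either direction (0%). At an unadjusted p under 0.05 there were 2063 genes, where 5% of the genes tested is 963. Of the 2063, 1314 were lower on fish oil and 749 higher. The number at that level depended on the fit. Fitted to only the groups compared, without the sham libraries, it was 988 of 18076 genes tested, with a lowest adjusted p of 0.806. Over the alternatives it ran from 402 with the choroid plexus covariate, which cannot tell diet from level, to 3216 without purified injured replicate 4. DESeq2 called 186, of which 137 were lower and 49 higher, and limma-voom called 0 with 1864 at an unadjusted p under 0.05. An exact permutation test of 3 libraries against 3 cannot give a p below 0.1, so none is given for single genes. For the difference between the diet contrasts of injured and sham mice edgeR called 0 genes (0%), with 1108 at an unadjusted p under 0.05, limma-voom called 0 and DESeq2 called 21.

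The diet contrasts of injured and sham mice use separate libraries, though they share the fit's estimate of spread. Of the 1314 genes lower at an unadjusted p under 0.05 in injured mice, 912 were also below 0 in sham mice (69.4%), and of the 749 higher ones 343 were also above 0 (45.8%), against 54.7% of all genes with the same sign in both. Across the 14575 genes with a mean of at least 1 CPM the log2 fold changes of the contrasts had a Pearson correlation of -0.02 and a Spearman correlation of 0.09, over genes that are not independent of each other. Among the lists, all endothelial genes lay below 0 in both contrasts. Ribosomal protein genes were above 0 in 24 of 24 in injured and 22 of 24 in sham mice. Choroid plexus, ependymal and interferon genes had medians of opposite sign in the contrasts.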

How the data were processed

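RNA sequencing libraries of mouse brain, 12 in all and 6 of them compared here, came from total RNA and a strand-preserving kit with paired reads, per the labels' protocols. STAR 2.5.2a, featureCounts 1.4.3-p1 and the mm10 build are named in the submitters' processing notes. The deposited values are raw counts per gene by versioned Ensembl identifier, which the authors made per library. The sources used here give neither the annotation nor the strand setting, nor how multiply mapped reads were handled, and overlapping genes and close paralogs may share reads. Values of 2 (20514) outnumber values of 1 (11222), so both mates of a pair may be counted. Symbols came from GENCODE M21, in which 53274 identifiers matched without version.

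Genes were kept with filterByExpr at a minimum count of 10. edgeR 4.0.16 (TMM factors, glmQLFit and glmQLFTest, robust) was fitted in R 4.3.3 to all 12 libraries with 4 group means and 8 residual degrees of freedom, and p-values were adjusted by Benjamini-Hochberg over 19252 genes at a threshold of 0.05. SEs were derived from the F statistic. The biological coefficient of variation was 0.289. At 46362158 or more counts per library the spread between libraries, not counting error, thus limits precision for genes with many reads. For genes with few reads, such as Oas1a, counting error limits it too. Replicates of a group differed far beyond sampling noise (chi-square per degree of freedom of at least 30.8). Same-numbered libraries of the compared groups had correlations of deviations of -0.16, -0.15 and -0.37, so the numbers do not pair them.

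The members and 45 gene lists were chosen with earlier results of these data known, and 2 further lists after values were seen. Lists are described by counts and medians, without a test. Named genes are the 10 with the smallest p in each direction at a mean of at least 1 CPM, and up to 2 members per list with the smallest p, leaving out predicted genes and pseudogenes. Other named list members and Dctn4 were chosen after their values were seen. Levels of a list per library are means of log2 CPM (prior count 2) centred over the 12 libraries. Alternatives used DESeq2 1.42.0, limma 3.58.1 (voom), RLE and upper-quartile factors, other filters, covariates and left-out libraries. The procedure was tested on simulated data, in which DESeq2 called unchanged genes at a rate above its threshold and edgeR stayed close to it, so a gene called by DESeq2 alone is less certain than its adjusted p states. Library names of replicates 3 and 4 begin with the same number in each of the 4 groups, and the labels do not say what it marks. The limma-voom fit with correlated libraries uses it as a block. Promoter windows and their coordinates are from the RefSeq table for GRCm38.p6, and gene positions from GENCODE M21 on GRCm38. Some single genes that these rules name are not reported here, and they stay in the counts and medians.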

Additional observations from a re-analysis of the deposited data

How the results depend on the processing

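The count of 0 genes between the diets in injured mice was also 0 with RLE or upper-quartile factors, limma-voom with and without correlated libraries, no filter or a filter of 1 CPM, only the groups compared, the choroid plexus or splicing factor level as a covariate, halved counts, fish oil injured replicate 2 alone and a threshold of 0.10. It was 186 with DESeq2 and 1 with the olfactory bulb covariate or without both fish oil sham replicate 2 and purified injured replicate 3, and ran from 0 to 83 with 1 library left out. The difference of contrasts gave 21 with DESeq2 and 0 otherwise. With the replicate block the paired fit gave 0 genes, 1618 at an unadjusted p under 0.05, and 0 for the difference of contrasts. The cause of these changes was not tested. As the choroid plexus level does not overlap between the diet groups of injured mice, fits with it as a covariate cannot tell diet from level. Nor can fits with the splicing factor level, since every member of its list was lower on fish oil. Halved counts, the splicing covariate and fish oil injured replicate 2 alone were chosen after seeing the data.

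List medians that moved by more than the spread between libraries, or by over 1.5 times, include the following. With the choroid plexus covariate they were 0.23 for choroid plexus, -0.63 for pericyte, 2.21 for myelin and -0.13 for splicing genes. The same covariate gave 0.14 for unfolded protein and 0.15 for heat shock genes. Among single genes it gave 0.061 for Calr, 0.15 for Hspa5, 0.15 for Hsp90b1 and -0.070 for Pecam1. Fish oil injured replicate 2 alone gave 2.01 for choroid plexus, -0.77 for pericyte, 0.093 for ribosomal and -0.080 for fatty acid oxidation genes. The splicing covariate gave 2.75 for choroid plexus, 0.097 for ribosomal, 0.38 for olfactory bulb and -0.0088 for splicing genes. Olfactory bulb genes were at -1.94 with limma-voom, 0.089 with their own covariate and -0.082 without both fish oil sham replicate 2 and purified injured replicate 3. With 1 library left out, medians ran from -4.74 to -0.082 for olfactory bulb, -0.62 to -0.24 for pericyte, -0.57 to -0.018 for matrix, 0.26 to 0.68 for ependymal, 0.29 to 0.97 for myelin, -0.60 to -0.27 for splicing and 0.02 to 0.19 for fatty acid oxidation genes. Over 107 named genes and 2881 values, 2813 kept sign and side of the threshold, 54 newly passed and 14 turned sign. Folr1 (-0.24) and Ifit1 (0.0058) turned with the choroid plexus covariate, Doc2g (0.089), Cldn5 (0.10) and Mfsd2a (0.015) with the olfactory bulb covariate, and Eomes (0.16), Doc2g (2.00), Sall1 (0.13), Cldn5 (0.17) and Mfsd2a (0.018) with the splicing covariate. Cldn5 was at 0.11 without purified injured replicate 3, with or without fish oil sham replicate 2, at 0.0082 without fish oil injured replicate 2 and at 0.028 without fish oil injured replicate 3, with -0.35 the lowest of its values with 1 library left out. Other named genes also moved by over 1.5 times with 1 library left out, and kept their sign. Without purified injured replicate 2, Stat2 was at -0.30, Hspa5 at 0.22 and Slc39a12 at 0.27, and without purified injured replicate 3, Hsph1 was at 0.23, Srsf5 at -0.32 and Slc1a2 at 0.22. Cdh5 was at -0.15 without purified injured replicate 4. Nlrc5 was at -0.57 and Mt1 at 0.56 without fish oil injured replicate 3. Without fish oil injured replicate 4, mt-Nd2 was at 0.24, Ndufv2 at 0.18, Grin2a at 0.35, Oas1a at -3.28, Nlrc5 at -1.39 and Ifih1 at 0.0097. The ranges of Pdk4 (0.13 to 0.39), Pdgfrb (-0.40 to -0.13) and Mfsd2a (-0.37 to -0.0054) were as wide.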
